A study of Rattus norvegicus with 4 samples.

Results

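Collagens are the triple-helical proteins of the extracellular matrix, and their genes were examined here in neonatal rat cardiomyocytes that overexpressed atrogin-1. A gene was taken in when its symbol in the array's probe-gene table has the form of a collagen chain (Col, a number, a, a number), and so were the genes of enzymes that modify collagen (P4ha1 to P4ha3, Plod1 to Plod3, Lox, Loxl1, Loxl2 and P3h1) and the collagen chaperone gene Serpinh1. This gave 41 collagen genes and 11 modifying genes, 52 of the 14217 genes measured, with 73 of 31042 probe sets. P3h2 (Leprel1), which the rule also names, was not analysed here.

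The cells came from the heart ventricles of neonatal Sprague-Dawley rats, aged between 1 and 2 days. For 24 hours they were kept without serum after infection with 1 of 2 adenoviruses. The Ad-atrogin-1 virus (2 arrays) expresses atrogin-1 together with GFP, and the Ad-GFP virus (2 arrays) expresses only GFP, so both groups hold virus and GFP. Atrogin-1, encoded by Fbxo32, is a muscle ubiquitin ligase, and the study asked which genes it regulates. Arrays of 1 group are labelled as biological replicates, and the study's methods describe RNA from independent experiments without tying these to arrays. The limma p-values rest on the spread between these arrays, moderated by a variance prior drawn from all probe sets. Fbxo32 itself had log2 signals of 13.55 and 13.47 in Ad-atrogin-1 cells, against 5.24 and 5.04 in Ad-GFP cells. The lower quartiles of the 4 arrays lie between 3.88 and 3.94 on the log2 scale, and signals below them are treated as weak. The 9 measured cardiomyocyte markers averaged 11.53 and 11.05 in Ad-atrogin-1 cells, against 10.96 and 11.25 in Ad-GFP cells, so markers of the labelled cell type were bright on every array, and 0 of them were called.

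A collagen is made as single chains that enter the endoplasmic reticulum (ER), where prolyl and lysyl hydroxylases modify them and Serpinh1 (HSP47) holds the folded triple helix. Outside the cell the ends are trimmed, fibrils form, and lysyl oxidases link them. In the heart, fibroblasts are the main source of the fibrillar collagens of types I and III, while cardiomyocytes, endothelial cells and smooth muscle cells lie on basement membranes built on type IV collagen.

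The promoters shown belong to the chaperone gene, to an enzyme gene and to a pair of neighbouring collagen genes with results given further on. They are RefSeq sequences of the GRCr8 build, 250 bases before to 50 after the start, and 41 of the 52 genes had an entry in that table. Capitals in the promoters of Serpinh1 (chr1:163062927-163063226, minus strand) and of the lysyl hydroxylase gene Plod2 (chr8:101964068-101964367, plus strand) mark a match to the heat shock element, read as TTC, any 2 bases, GAA, any 2 bases and TTC, which in Plod2 lies on the other strand. Capitals in the promoters of Col4a5 (chrX:109907109-109907408, plus strand) and Col4a6 (chrX:109905895-109906194, minus strand), 2 type IV collagen genes that run away from each other with starts 1415 bases apart, mark the GC box GGGCGG, which in Col4a6 lies on the other strand.
Serpinh1: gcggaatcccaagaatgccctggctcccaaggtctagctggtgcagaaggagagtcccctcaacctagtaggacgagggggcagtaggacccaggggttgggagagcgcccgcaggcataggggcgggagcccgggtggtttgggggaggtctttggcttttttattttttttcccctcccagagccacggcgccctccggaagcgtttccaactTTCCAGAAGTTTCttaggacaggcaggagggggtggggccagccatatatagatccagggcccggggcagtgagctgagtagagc
Plod2: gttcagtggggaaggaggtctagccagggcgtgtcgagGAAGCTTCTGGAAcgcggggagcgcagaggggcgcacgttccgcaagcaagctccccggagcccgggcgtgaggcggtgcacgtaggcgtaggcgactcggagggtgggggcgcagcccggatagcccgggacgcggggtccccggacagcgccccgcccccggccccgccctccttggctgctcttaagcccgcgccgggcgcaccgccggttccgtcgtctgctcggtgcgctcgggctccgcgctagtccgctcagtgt
Col4a5: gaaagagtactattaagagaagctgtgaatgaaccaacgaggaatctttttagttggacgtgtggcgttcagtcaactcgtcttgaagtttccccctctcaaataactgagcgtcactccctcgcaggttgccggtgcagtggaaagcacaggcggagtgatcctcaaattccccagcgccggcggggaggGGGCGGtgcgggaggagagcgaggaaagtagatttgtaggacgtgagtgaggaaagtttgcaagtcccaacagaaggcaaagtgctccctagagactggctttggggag
Col4a6: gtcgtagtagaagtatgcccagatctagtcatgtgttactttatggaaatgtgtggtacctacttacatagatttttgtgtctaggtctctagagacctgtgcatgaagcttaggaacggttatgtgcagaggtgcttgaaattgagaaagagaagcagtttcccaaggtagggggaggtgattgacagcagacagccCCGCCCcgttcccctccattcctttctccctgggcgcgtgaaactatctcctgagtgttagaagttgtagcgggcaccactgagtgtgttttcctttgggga

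Each motif was searched on both strands. All promoters were counted by entry, and those of the 41 genes by gene. The heat shock element was present in 0.798% of all 33469 promoters of the table and in 2 of the 41 genes, Serpinh1 and Plod2. The GC box was present in 33.1% of all promoters and in 26 of the 41. The ER stress element, read as CCAAT, any 9 bases and CCACG (0.0657% of all promoters), and the unfolded protein response element TGACGTGG (0.595%), which share the letters CCACG on opposite strands, had no match among the 41. A match is a description of these letters and not a measured site.

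No collagen gene and no modifying gene passed the test in Ad-atrogin-1 compared with Ad-GFP cardiomyocytes. A gene was called at an adjusted p under 0.05 from limma and a change of at least 2-fold, and at these thresholds 0.457% of all 14217 genes were called higher and 0.0563% lower, 0.513% in all. These are 65 genes higher and 8 lower, against 80 and 18 after centring the arrays on their medians and 74 and 20 after a further quantile normalization. Of the 41 collagen genes, 0 were higher and 0 lower, and the same held for the 11 modifying genes. No member reached 2-fold in either direction, against 0.823% of all genes that were 2-fold higher and 0.387% that were 2-fold lower without regard to a test. The lowest adjusted p was 0.117, for P4ha3. The methods' t-test called 0 of all 14217 genes, and Fbxo32 itself did not pass it, so its 0 calls among the members carry no information. Before adjustment its p was under 0.05 for 0 collagen genes higher and 1 lower, and for 1 modifying gene higher and 2 lower, against 4.86% of all genes higher and 4.56% lower. In RNA of whole cultures, fewer cells of a type and less RNA per cell cannot be told apart.

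Before adjustment, limma gave p under 0.05 for 2 collagen genes that were higher, Col6a3 and Col8a1, and for 2 that were lower, Col4a5 and Col4a6. The same was true of 2 modifying genes that were higher, Serpinh1 and P3h1, and 2 that were lower, P4ha3 and Lox. Among all genes, 6.83% were higher and 6.52% lower by this measure. The median change, in log2 units of Ad-atrogin-1 over Ad-GFP, was 0.03 for the collagen genes, with 22 above 0 and 19 below it, and -0.17 for the modifying genes, against -0.003 for all genes. The median of the collagen genes ranged from -0.09 to 0.12, across 0, when single arrays were left out, and that of the modifying genes from -0.28 to -0.03.

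Most of these changes had intervals inside 2-fold, as most of all genes did, so this is not particular to these genes. The 95% interval of the log2 fold change, taken for each gene on its own, lay inside 2-fold in both directions for 38 of 41 collagen genes and for 11 of 11 modifying genes, against 92.6% of all genes. The 3 exceptions were Col6a3, Col8a1 and Col15a1, whose intervals reached past 2-fold higher, the furthest to 1.14 on the log2 scale (Col6a3). No interval reached 2-fold lower. The groups did not overlap for 7 collagen genes that were higher and 8 that were lower, with 26 overlapping, and for 3 and 5 modifying genes with 3 overlapping. Over all genes the groups did not overlap for 43%, with 20.7% higher and 22.3% lower. Over all probe sets the share was 40.4%, and among the 73 member probe sets 11 were higher and 15 lower without overlap.

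**Figure D1:**
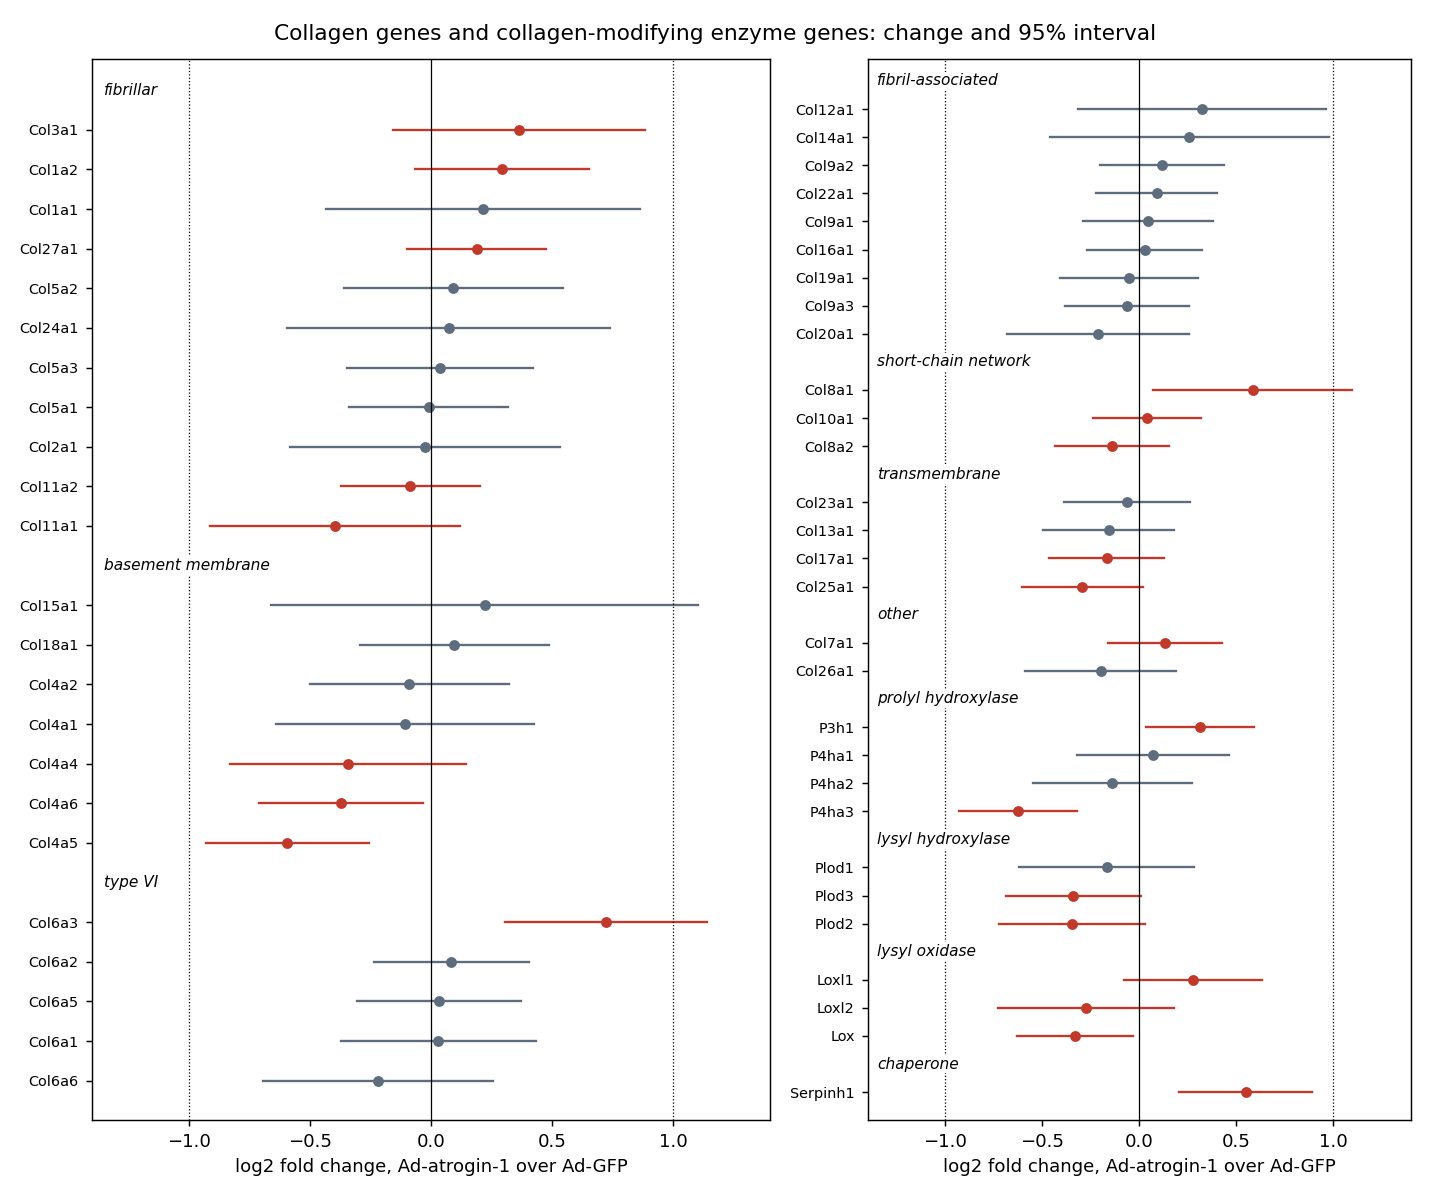
Log2 fold change between Ad-atrogin-1 and Ad-GFP cells (x axis; positive, higher in Ad-atrogin-1; dotted lines, 2-fold) with its 95% interval from limma for the 41 collagen genes and 11 modifying genes, by class (y axis); red, groups that do not overlap; grey, groups that overlap. Points lie between -0.63 (P4ha3) and 0.72 (Col6a3), and none reaches 2-fold.

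The fibrillar collagens form the banded fibers of connective tissue, and none of the 11 genes passed the test. Col1a1, the chain that occurs as a pair in type I collagen, had log2 signals of 11.17 and 11.61 in Ad-atrogin-1 cells, against 10.84 and 11.50 in Ad-GFP cells. The groups overlapped, and the log2 fold change was 0.21 with a standard error of 0.26. Its partner chain gene Col1a2 had 11.27 and 11.43 in Ad-atrogin-1 cells, against 10.92 and 11.19 in Ad-GFP cells. Both Ad-atrogin-1 arrays were higher, by 0.29 on the log2 scale (standard error 0.14, adjusted p = 0.469, limma). Col3a1, the chain of type III collagen, which forms thinner fibers beside type I, had 11.22 and 11.28 against 10.59 and 11.18. Its groups just failed to overlap, and the difference of 0.36 (standard error 0.21) was smaller than the gap between the 2 Ad-GFP arrays. For these 3 genes the upper ends of the 95% intervals were 0.86, 0.65 and 0.88, all short of 2-fold.

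Type V collagen starts fibrils and sets their width. Its genes Col5a1, Col5a2 and Col5a3 had log2 fold changes of -0.01, 0.09 and 0.04, and the groups overlapped for each. Of the minor and cartilage-type fibrillar genes, Col27a1 was higher on both Ad-atrogin-1 arrays (0.19, standard error 0.12), while Col11a2 (-0.09) and Col11a1 (-0.40, standard error 0.21) were lower on both. The Ad-GFP arrays differed for Col11a1, with 4.34 and 4.91, against 4.17 and 4.29 in Ad-atrogin-1 cells. The groups overlapped for Col24a1 (0.07) and for Col2a1 (-0.02), the type II collagen gene of cartilage, whose signals were near the lower quartile.

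Among the 7 basement membrane collagen genes, the 3 with the most negative values were all minor type IV chains. Col4a5, a chain of the kidney, lung and smooth muscle networks that is mutated in human Alport syndrome, had log2 signals of 8.70 and 8.48 in Ad-atrogin-1 cells, against 9.12 and 9.24 in Ad-GFP cells. Both Ad-atrogin-1 arrays were lower, and the log2 fold change of -0.59 (standard error 0.14, 1.51-fold) exceeded the gap within either group. Its adjusted p was 0.169 (limma). Col4a6, which assembles with Col4a5 and starts next to it on the other strand of chromosome X, as shown above, had 5.83 and 5.92 against 6.12 and 6.37, a log2 fold change of -0.37 (standard error 0.14). A second, dimmer Col4a6 probe set had 4.54 and 4.15 against 5.06 and 4.80, also without overlap. Col4a4 had 4.48 and 5.02 against 5.14 and 5.04, lower on both Ad-atrogin-1 arrays by little at the nearest arrays, with -0.34 (standard error 0.20, adjusted p = 0.529, limma).

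The main type IV chains had overlapping groups. Col4a1 had log2 signals of 10.47 and 10.88 in Ad-atrogin-1 cells, against 10.55 and 11.01 in Ad-GFP cells, and Col4a2 had 10.87 and 11.03, against 10.85 and 11.23. Their log2 fold changes were -0.11 (standard error 0.21) and -0.09 (0.17). Like Col4a5 and Col4a6 these genes run away from each other, with starts 77 bases apart on chromosome 16. The mean of Col4a5 and Col4a6 minus that of Col4a1 and Col4a2, in log2 units, was -3.41 and -3.75 on the Ad-atrogin-1 arrays, against -3.08 and -3.32 on the Ad-GFP arrays. This difference was 0.38 lower in Ad-atrogin-1 cells, and as the pairs were chosen after their values were seen it was not tested. Col18a1, the precursor of endostatin, had a log2 fold change of 0.10 and its relative Col15a1 0.22, both with overlapping groups.

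**Figure D2:**
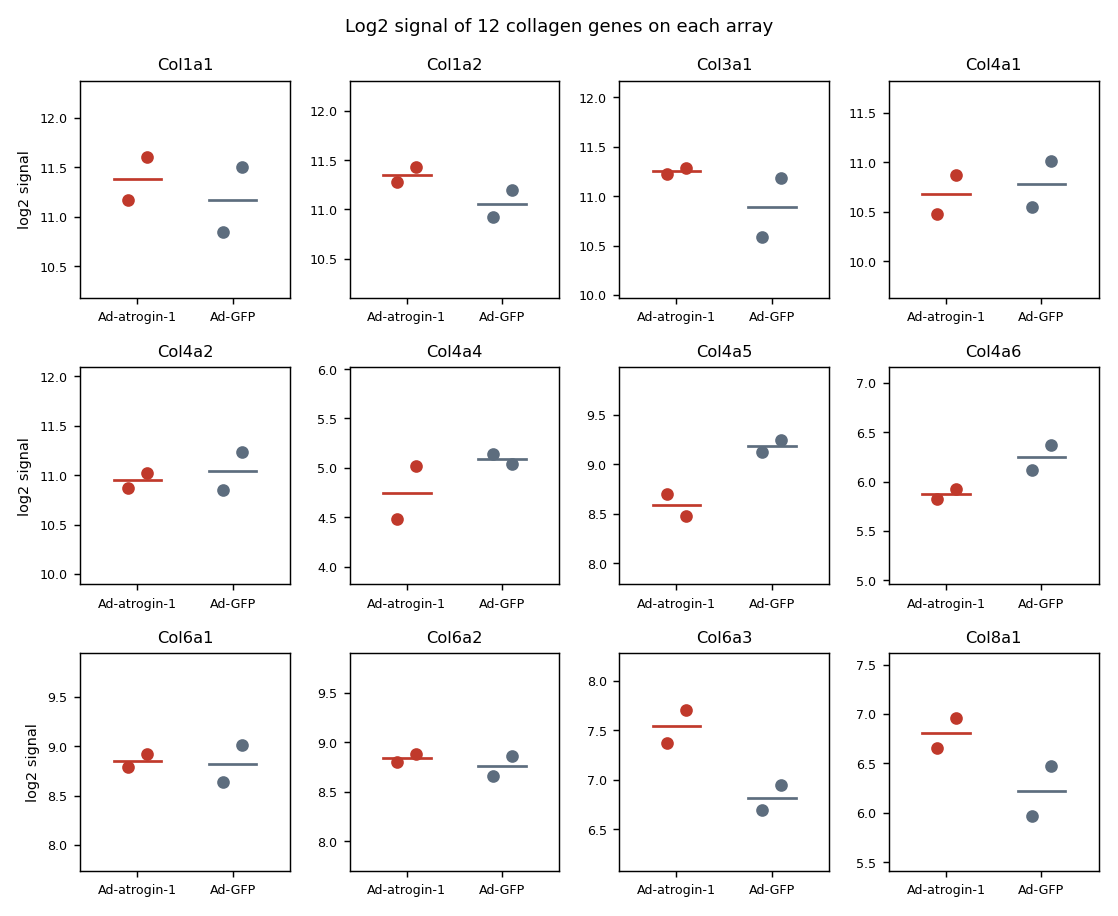
Log2 signal (y axis) of 12 collagen genes on each array, in Ad-atrogin-1 (red) and Ad-GFP (grey) cells; points, arrays; lines, group means; every panel spans the same log2 range. Col1a2, Col3a1, Col4a4, Col4a5, Col4a6, Col6a3 and Col8a1 have groups that do not overlap, while Col1a1, Col4a1, Col4a2, Col6a1 and Col6a2 overlap.

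Col6a3 had the largest positive change of all these genes. It encodes the largest of the main chains of type VI collagen, which forms beaded filaments around cells. Its log2 signals were 7.37 and 7.71 in Ad-atrogin-1 cells, against 6.69 and 6.94 in Ad-GFP cells. Both Ad-atrogin-1 arrays were higher, by 0.72 on the log2 scale (standard error 0.17, 95% interval 0.30 to 1.14, 1.65-fold, adjusted p = 0.176, limma). A dimmer Col6a3 probe set had 5.55 and 6.13, against 5.55 and 5.37, with a log2 fold change of 0.38 (standard error 0.21) and overlapping groups.

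The groups overlapped for the chains that assemble with it. Col6a1 had log2 signals of 8.79 and 8.92 in Ad-atrogin-1 cells, against 8.64 and 9.01 in Ad-GFP cells, and Col6a2 had 8.80 and 8.88, against 8.66 and 8.86. Their log2 fold changes were 0.03 (standard error 0.16) and 0.08 (0.13). Col6a3 minus the mean of Col6a1 and Col6a2 was -1.42 and -1.19 on the Ad-atrogin-1 arrays, against -1.96 and -1.99 on the Ad-GFP arrays, a shift of 0.67 that was likewise chosen after the values were seen and not tested. Col6a5 (0.03) and Col6a6 (-0.22) had signals under the lower quartile on every array.

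Col8a1, a short-chain collagen of vessel walls that forms hexagonal networks, had log2 signals of 6.66 and 6.96 in Ad-atrogin-1 cells, against 5.97 and 6.47 in Ad-GFP cells. Both Ad-atrogin-1 arrays were higher, by 0.59 (standard error 0.21, adjusted p = 0.317, limma). Of the same class, and named after their values were seen, Col8a2, which encodes the other type VIII chain, was weak on every array and had -0.14 (standard error 0.12). Col10a1, the network-forming collagen of growth plate cartilage, had 0.04 (standard error 0.11), higher on both Ad-atrogin-1 arrays by a small amount.

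In the 9 fibril-associated collagen genes, which decorate fibril surfaces, the groups overlapped throughout. The largest values, named after they were seen, were those of Col12a1 (0.32, standard error 0.26), whose 3 probe sets had log2 fold changes of 0.23 to 0.45, and of Col14a1 (0.26, standard error 0.29). For Col12a1, Ad-atrogin-1 replicate 2 stood apart at 8.28, beside 7.50 on the other Ad-atrogin-1 array and 7.61 and 7.53 in Ad-GFP cells. All 4 transmembrane collagen genes had negative values, from -0.29 to -0.06, and 3 of them were under the lower quartile on every array, among them the hemidesmosome gene Col17a1 (-0.17) and the neuronal gene Col25a1 (-0.29). Col7a1, which encodes the anchoring fibrils of the skin, had 0.13 (standard error 0.12). In all, 9 of the 41 collagen genes were under the lower quartile on all 4 arrays, against 13% of all genes, and for these a fold change is not an exact size.

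Serpinh1 had the largest positive change among the modifying genes. Its log2 signals were 12.31 and 12.49 in Ad-atrogin-1 cells, against 11.75 and 11.96 in Ad-GFP cells. Both Ad-atrogin-1 arrays were higher, by 0.55 on the log2 scale (standard error 0.14, 95% interval 0.20 to 0.89, 1.46-fold, adjusted p = 0.201, limma). The interval leaves out a 2-fold increase. Its second probe set, under the lower quartile on every array, had 0.18.

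Prolyl hydroxylation stabilizes the triple helix, and the genes of its enzymes had values of both signs. P4ha3, an alpha subunit of prolyl 4-hydroxylase, had log2 signals of 7.67 and 7.56 in Ad-atrogin-1 cells, against 8.31 and 8.18 in Ad-GFP cells. Neither Ad-atrogin-1 array reached the Ad-GFP arrays, with a change of -0.63 in log2 units (standard error 0.12, 95% interval -0.93 to -0.32, 1.54-fold, adjusted p = 0.117, limma). The other alpha subunit genes, P4ha1 and P4ha2, had 0.07 (standard error 0.16) and -0.14 (0.17), with overlapping groups. P3h1, a prolyl 3-hydroxylase, had 7.58 and 7.58 in Ad-atrogin-1 cells, against 7.29 and 7.25 in Ad-GFP cells. It was higher on both Ad-atrogin-1 arrays by 0.31 (standard error 0.11, 1.24-fold, adjusted p = 0.329, limma).

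The lysyl hydroxylase genes all had negative values. Plod2, the enzyme of the telopeptide lysines, had log2 signals of 8.91 and 8.90 in Ad-atrogin-1 cells, against 9.08 and 9.42 in Ad-GFP cells, a log2 fold change of -0.35 (standard error 0.15). Its promoter, like that of Serpinh1, holds a heat shock element match, and whether this element acts in these cells was not tested. Plod3, which also adds sugars to hydroxylysine, had 8.69 and 8.57 against 8.84 and 9.10 (-0.34, standard error 0.14), and Plod1 had -0.17 (0.18) with overlapping groups. None of the 3 passed (adjusted p = 0.387 to 0.758, limma).

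The lysyl oxidases, which cross-link collagen and elastin outside the cell, had values of both signs. Lox had log2 signals of 8.75 and 8.77 in Ad-atrogin-1 cells, against 9.01 and 9.16 in Ad-GFP cells, which is -0.33 on the log2 scale (adjusted p = 0.332, limma; standard error 0.12). Its other probe set had 8.64 and 8.52, against 8.57 and 9.10, and overlapped. Loxl2 had 7.57 and 8.05 against 8.08 and 8.09 (-0.27, standard error 0.18). Loxl1 was higher on both Ad-atrogin-1 arrays, with 7.72 and 7.68 against 7.27 and 7.57 (0.28, standard error 0.14).

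**Figure D3:**
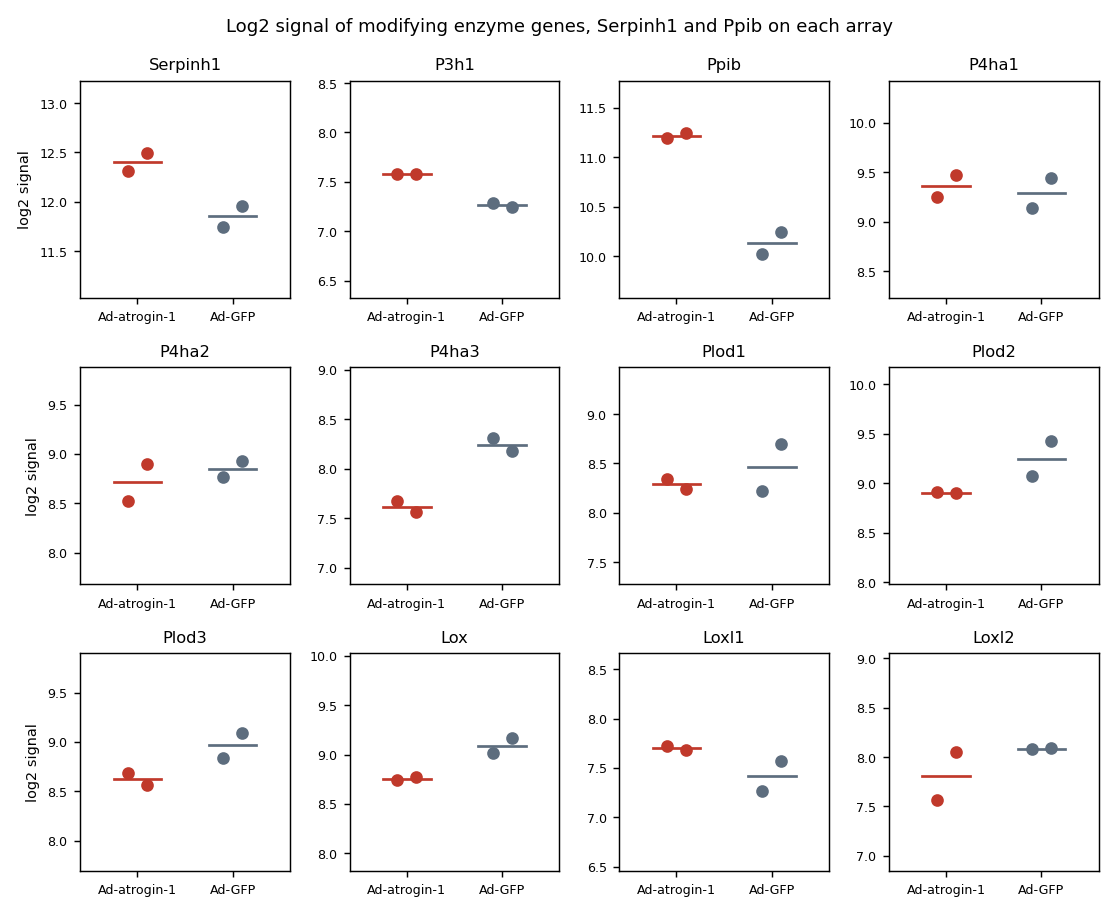
Log2 signal (y axis) of the 11 modifying genes and of their partner gene Ppib on each array, in Ad-atrogin-1 (red) and Ad-GFP (grey) cells; points, arrays; lines, group means; every panel spans the same log2 range. Ppib lies furthest apart, Serpinh1, P3h1 and Loxl1 are higher and P4ha3, Plod2, Plod3, Lox and Loxl2 lower on both Ad-atrogin-1 arrays.

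Of the 18 genes with several probe sets, 16 had the same sign at all of them, and Col2a1 and Col5a1, both near 0, did not. With limma's p adjusted across the 31042 probe sets, no member probe set passed (lowest adjusted p 0.152), where 0.248% of all probe sets were called higher and 0.0258% lower.

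Other genes of collagen production were measured from a list of partners. Of 15 measured genes that act with collagen in the ER, 1 rose and 0 fell. This was Ppib, which encodes cyclophilin B, the prolyl isomerase that forms a complex with P3h1 and Crtap. Ppib had log2 signals of 11.20 and 11.24 in Ad-atrogin-1 cells, against 10.02 and 10.24 in Ad-GFP cells, which is 2.12-fold higher (1.09 on the log2 scale; adjusted p = 0.0451, limma; standard error 0.13). The call did not hold with adjustment across every probe set (0.0593) or when any 1 array was left out (0.386 to 0.449, with log2 fold changes of 0.98 to 1.20). Within the same complex P3h1 had 0.31, as given above, and Crtap, named after its values were seen, -0.14 (standard error 0.11).

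Before adjustment, 6 of the 15 ER partners had p under 0.05, all higher, against 6.83% of all genes. Besides Ppib these were, chosen after their values were seen, Sec24d and Mia3, which load collagen into transport carriers (0.97 and 0.54, adjusted p = 0.0617 and 0.139, limma), the isomerase gene Fkbp14 (0.44), Mia2 (0.40) and P4hb (0.42), the protein disulfide isomerase that serves as beta subunit of prolyl 4-hydroxylase. The median of the 15 was 0.12, against -0.003 for all genes. As the list was chosen with earlier results of these data known, its share and median describe these genes and are not a test of them.

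Partners outside the ER did not pass the test. Of all genes, 0.513% were called, and 6.83% were higher and 6.52% lower at an unadjusted p under 0.05 (limma). None of the 3 measured extracellular processing genes, 9 fibril partners and 5 receptors and uptake genes was called. An unadjusted p under 0.05 was reached by 1, 2 and 1 of them. These were the procollagen C-proteinase gene Bmp1, with -0.28 (standard error 0.11), the matrix genes Tgfbi and Thbs2, with 0.59 (0.175) and 0.74 (0.26), and the collagen receptor gene Itga11, with 0.61 (0.19) and signals near the lower quartile. Loxl3 had -0.38 (standard error 0.25) and the collagen-degrading cathepsin gene Ctsk 0.17 (0.11).

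Cells other than cardiomyocytes make much of the collagen in such cultures, so their markers are given beside the collagens. All 12 fibroblast markers were measured and 0 were called, with a median log2 fold change of -0.02. Of these, 4 are also in the partner lists. Their mean log2 signal was 7.39 and 7.07 on the Ad-atrogin-1 arrays, against 6.998 and 7.39 on the Ad-GFP arrays, and the groups overlapped. The 11 fibrillar collagen genes averaged 7.50 and 7.61, against 7.33 and 7.65, and the 7 basement membrane genes 7.96 and 8.27, against 8.14 and 8.42. Within each group, the mean of the fibroblast markers was higher on Ad-atrogin-1 replicate 1 and on Ad-GFP replicate 2. That of the fibrillar collagens was higher on replicate 2 of both groups. The single fibroblast markers differed: 4 were highest on Ad-atrogin-1 replicate 1, 3 on Ad-atrogin-1 replicate 2, 1 on Ad-GFP replicate 1 and 4 on Ad-GFP replicate 2. The groups did not overlap for 2 of the 12 that were higher and 1 that was lower, against 20.7% and 22.3% of all genes. Of the higher markers, Cthrc1 had 7.16 and 7.35, against 6.40 and 6.97 (0.57, standard error 0.21, adjusted p = 0.338, limma). It was the 1 fibroblast marker with an unadjusted p under 0.05, and of the 12 markers 6 had values above 0 and 6 below. Dcn and Lum were bright on every array, with log2 fold changes of -0.30 and 0.0025, and Mfap5 lay under the lower quartile on every array. These 4 markers were named after their values were seen, and the part of fibroblast RNA in the collagen values was not tested.

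The 7 measured endothelial markers averaged 5.77 and 6.62 on the Ad-atrogin-1 arrays, against 5.83 and 6.26 on the Ad-GFP arrays, with 0 called. Of these, 3 were highest on Ad-atrogin-1 replicate 2 and 4 on Ad-GFP replicate 2, all with overlapping groups. The endothelial genes Pecam1 (5.66 and 7.09, against 5.60 and 6.41) and Emcn (5.48 and 8.02, against 5.74 and 6.02) were highest on Ad-atrogin-1 replicate 2, as was Tie1, while Tek, Vwf, Egfl7 and Kdr were highest on Ad-GFP replicate 2. These genes were named after their values were seen. Col15a1, a basement membrane collagen of vessels, was highest on Ad-atrogin-1 replicate 2, with 7.08 and 8.04, against 7.04 and 7.64. Its second probe set had 6.25 and 7.41, against 6.33 and 6.86. The part of endothelial RNA in the values of Col15a1 was not tested. The 6 smooth muscle and pericyte markers averaged 8.67 and 8.80, against 8.36 and 8.57, so both Ad-atrogin-1 arrays were higher, with a median change of 0.16. The groups did not overlap for 2 of the 6, Rgs5 and Myh11, against 43% of all genes. They overlapped for 4, among them Tagln (-0.03) and Cnn1 (-0.01). Without Rgs5 the other 5 averaged 8.96 and 9.03, against 8.77 and 8.97, and overlapped. Rgs5, a pericyte gene, had 7.22 and 7.64, against 6.34 and 6.57 (adjusted p = 0.102, limma), and these muscle and pericyte genes were also named after their values were seen. The 4 measured mesothelial markers averaged 5.59 and 5.69, against 4.48 and 5.12. Their median change was -0.03, with 2 values above 0 and 2 below, so the higher means do not describe the list as a whole. Only Krt19 had groups that did not overlap, a keratin gene named after its values were seen. It had 7.89 and 8.09, against 3.20 and 5.48 (adjusted p = 0.107, limma). Macrophage markers (median 0.05) and Schwann markers (-0.15) overlapped as means. No gene of these lists was called, and their part in the collagen values was not tested.

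**Figure D4:**
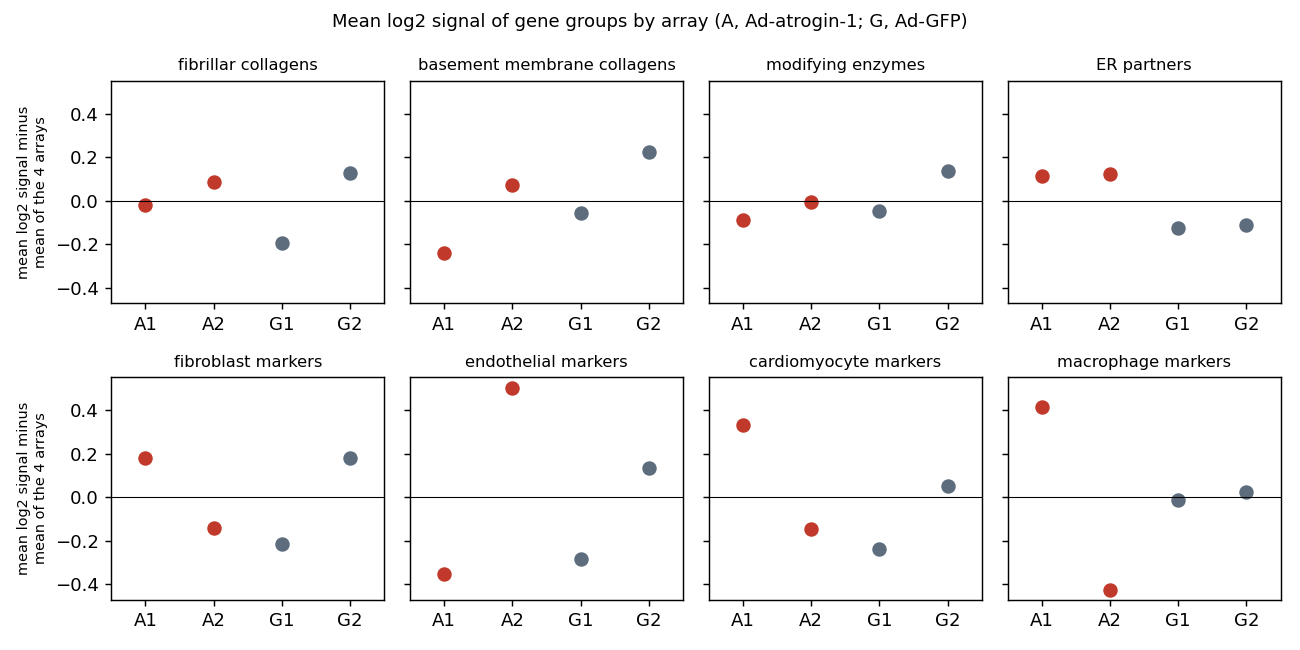
Mean log2 signal of each gene group on an array minus its mean over the 4 arrays (y axis), by array (x axis; A1 and A2, Ad-atrogin-1 replicates 1 and 2, red; G1 and G2, Ad-GFP replicates 1 and 2, grey). The groups lie apart for the ER partners and overlap for the fibrillar and basement membrane collagens, the modifying genes and the fibroblast, endothelial, cardiomyocyte and macrophage markers. The smooth muscle and pericyte markers and the mesothelial markers, whose means also lie apart, are not drawn. Of the mesothelial markers only Krt19 had groups that did not overlap, and without Rgs5 the smooth muscle and pericyte means overlapped.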

How the data were processed

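Expression was measured in total RNA of 2 Ad-atrogin-1 and 2 Ad-GFP samples, each on its own Affymetrix rat array. The deposited values are log2 signals per probe set, which the authors made by RMA (background correction, quantile normalization and summary over probes) in GeneSpring GX. They were used as deposited. Control probe sets (57) were left out and no filter on low signal was set. Probe sets were named through a table of the platform's annotation: 20826 had 1 gene, 436 several and 9780 none. Where a gene had several, the brightest on average was taken. All 52 member symbols were found in RefSeq.

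Differences between the groups were tested two-sided, without a block, by limma 3.58.1 (lmFit, then eBayes; 2 residual and 3.65 prior degrees of freedom; R 4.3.3), with Benjamini-Hochberg adjusted p over 14217 genes, or over 31042 probe sets where stated. Calls were made at 2-fold and an adjusted p under 0.05, after the study's methods. The methods name tests of the means of 2 samples without detail, and the methods' t-test was run here with pooled variance. Intervals are 95% and not adjusted, and standard errors are moderated. The number of arrays limits the precision. The test was run on simulated data with independent noise and variances drawn from limma's own fitted prior. Such data lack shifts that genes share on an array, so they cannot show how the test fares with those. Members and lists were chosen with earlier results of these data known. Genes named are the modifying genes, the fibrillar, basement membrane and type VI genes, other collagen genes with the 6 largest changes in each direction without overlap, and in each partner list up to 4 called genes or, with none called, the 2 with the lowest p. Genes outside this rule are said to have been named after their values were seen. Alternatives changed the centring, normalization, signal filter, variance prior, test, adjustment, thresholds, probe set summary, block and arrays. Figures were drawn with matplotlib 3.10.9.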

Additional observations from a re-analysis of the deposited data

How the results depend on the processing

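No collagen gene, modifying gene or member probe set was called under any of the 16 alternatives. The methods' t-test, the replicate block and the runs without 1 array called almost no gene at all. Their lack of called members carries no information. Ppib, the 1 called partner gene, was lost (0 partner genes called) under the methods' t-test, with p adjusted over all probe sets, with the replicate number as a block (adjusted p = 0.171, limma) and without any 1 array, which leaves a lone array that is assumed to vary like the others. The count of partner genes was otherwise 1. Counts over all genes moved from 73 to 0 under the methods' t-test, which also lost Fbxo32 (adjusted p = 0.291). They moved to 165 with unadjusted p and 172 with no test. Lower calls alone moved from 8 to 18 with median centring and 20 with further quantile normalization. The replicate block gave 0 called members and 1 called gene in all, against 73 without it. The labels do not say whether arrays with the same number share a preparation, so the main test was run without a block. Deviations of arrays with the same number had a correlation of 0.04 over all probe sets and -0.03 over member probe sets. With 1 difference per group, this cannot settle whether the numbers pair the samples. The median of the modifying genes ranged from -0.28 to -0.0322 when single arrays were left out, and that of the collagen genes from -0.09 to 0.12. The further quantile normalization turned the sign of the change of Col2a1 (0.00334) and of the change of Col6a1 (-0.00688), and averaging probe sets turned that of the change of Col5a1 (0.0187). Leaving out 1 array turned the sign of 21 named genes, none of them called, with log2 fold changes of Col15a1 -0.26 to 0.70, Col18a1 -0.0395 to 0.23, Col1a1 -0.11 to 0.54, Col24a1 -0.26 to 0.41, Col2a1 -0.35 to 0.30, Col4a1 -0.34 to 0.13, Col4a2 -0.28 to 0.10, Col5a1 -0.12 to 0.10, Col5a2 -0.13 to 0.31, Col5a3 -0.14 to 0.21, Col6a1 -0.16 to 0.22, Col6a2 -0.017 to 0.19, Col6a5 -0.0651 to 0.13, Col6a6 -0.48 to 0.0408, P4ha1 -0.0808 to 0.22, P4ha2 -0.33 to 0.0526, Plod1 -0.40 to 0.0688, Col12a1 -0.0648 to 0.71, Col14a1 -0.18 to 0.70, Emcn -0.40 to 2.14 and Pecam1 -0.34 to 1.09. With 2 arrays per group, the number of arrays limits the precision.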

Other observations

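In both groups the arrays numbered 2 tended to carry more collagen signal than those numbered 1. Of the 41 collagen genes, 25 had a higher log2 signal on replicate 2 than on replicate 1 in both groups and 4 had a lower one, against 25.3% and 26.8% of all genes. For the fibrillar genes the counts were 8 and 0 of 11, and for the basement membrane genes 5 and 0 of 7. This count was made after the values had been seen and was not tested. Whether arrays with the same number share a preparation is not known.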
